A study of Mus musculus with 6 samples.

Results

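Cit, the mouse gene for citron kinase (NCBI Gene 12704), spans 163730 bp of chromosome 5, from 115845224 to 116008953 on the plus strand (GRCm38). It was studied together with the 300 kb window around it, chr5:115800000-116100000, which held the most peaks of 6503 windows when the chromosomes were tiled at that size. The window and gene were thus chosen by the number of peaks in them, so their peak numbers, spacing and values are given as a description, without a test. All peaks with a midpoint in the window were taken, which gave 103 of the 84111 peaks in the list, and 87 of these lay in the body of Cit. The fullest of the remaining windows held 80 peaks. The list breaks off on chromosome 6 and holds no peak of some other chromosomes. All ranks and shares given here therefore cover only part of the genome.

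Methylated DNA had been captured with the protein MBD2 and sequenced (MBD-seq). The study compared primary chondrocytes, the cells of cartilage, grown from knee articular cartilage of mice at postnatal days 3 to 5. The controls (3 cultures) are labelled Dnmt1 flox, and the conditional knockouts (cKO, 3 cultures) carry Prx1-Cre with Dnmt1 flox/flox, so a floxed allele of Dnmt1 is named for both groups. Prx1-Cre acts in limb mesenchyme, from which limb cartilage forms, and Dnmt1 copies CpG methylation onto newly made DNA strands. The peak list holds one value per peak from 3 merged datasets whose group is not given, so control and cKO could not be compared, although the submitters' title for the list calls its regions Dnmt1-mediated and no spread between animals accompanies any value. Neither the depth of the libraries nor markers of the cell type can be read from the list.

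Citron kinase sits at the midbody, the thin bridge that joins daughter cells at the end of division, and is needed to close that bridge in dividing neural precursors and germ cells. A shorter product of the same gene, without the kinase part, is found in neurons. In mammals, CpG sites inside gene bodies are commonly methylated while CpG-rich gene starts are commonly not, and MBD capture recovers DNA best where methylated CpG sites stand close together.

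The 300 bases around 3 gene starts of the window (250 before to 50 after the start) are shown because the run of peaks in Cit began just beyond the first of them, the second was overlapped by a peak, and the third was the richest in CpG of the window. They are RefSeq promoter windows of GRCm38.p6, written 5′ to 3′ on the strand of the gene with each CG in capitals. The Cit window lies at chr5:115845406-115845705 on the plus strand. The window of Gm36185, a long noncoding RNA gene (lncRNA) inside Cit on the opposite strand, lies at chr5:115923459-115923758. That of Prkab1, which encodes a regulatory beta subunit of the energy sensor AMPK and also lies on the minus strand, is at chr5:116024379-116024678.
Cit: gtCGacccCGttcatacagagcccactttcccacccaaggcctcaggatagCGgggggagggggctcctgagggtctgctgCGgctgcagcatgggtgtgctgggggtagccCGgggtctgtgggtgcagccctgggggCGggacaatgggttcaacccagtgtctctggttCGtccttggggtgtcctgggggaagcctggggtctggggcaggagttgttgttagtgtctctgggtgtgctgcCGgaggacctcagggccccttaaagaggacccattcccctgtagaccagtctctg
Gm36185: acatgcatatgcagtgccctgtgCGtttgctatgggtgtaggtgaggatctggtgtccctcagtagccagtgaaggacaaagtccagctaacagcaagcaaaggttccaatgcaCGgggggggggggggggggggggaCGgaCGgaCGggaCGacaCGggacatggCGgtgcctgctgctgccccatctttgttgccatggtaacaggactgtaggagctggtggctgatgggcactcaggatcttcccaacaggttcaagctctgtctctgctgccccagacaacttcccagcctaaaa
Prkab1: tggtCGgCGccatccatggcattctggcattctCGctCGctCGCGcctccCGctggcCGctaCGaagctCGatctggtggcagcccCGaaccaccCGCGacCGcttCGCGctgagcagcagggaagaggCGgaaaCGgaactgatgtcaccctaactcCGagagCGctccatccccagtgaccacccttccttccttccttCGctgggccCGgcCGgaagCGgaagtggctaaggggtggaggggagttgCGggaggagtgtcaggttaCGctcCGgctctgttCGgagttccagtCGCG

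The search was for the letters CG, which read the same on both strands. The Cit window held 8 CG, the Gm36185 window 8 and the Prkab1 window 30, against a median of 7 (quartiles 3 and 21) over 24392 promoter windows of that length on the sequence covered, 95.1% of which held at least 1. Over the promoter windows of protein-coding genes alone the median was 14 (quartiles 4 and 25), above the count for Cit. No peak touched the Cit window: the nearest began 444 bp beyond its end, at 115846149. A peak covered 194 bp of the Gm36185 window (115923565 to 115924146, fold 10.4). No peak touched the Prkab1 window, whose nearest peak ended 1605 bp away inside the gene. Of the 8 promoter windows that the table gives for this interval, 2 were overlapped by a peak, both of them of Gm36185, and the overlap at the second was 10 bp. Over all promoter windows 4.26% were overlapped.

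Each peak carries a fold enrichment, the authors' ratio of the signal at its summit to the background set by the peak caller, and a −log10 q. The 87 peaks in Cit amounted to 53.1 per 100 kb and together covered 28.8% of the gene. The gene takes up 54.6% of the window and held 84.5% of its peaks. Outside it the window held 16 peaks, or 11.7 per 100 kb, which covered 3.90% of the sequence. Cit was therefore 4.53 times as dense in peaks as the rest of its own window.

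The folds in Cit ran from 6.10 to 46.4 with a median of 14.3 (quartiles 10.4 and 25.3). The list as a whole, on the chromosomes, had a median fold of 13.2 (quartiles 8.41 and 21.7). Cit thus had many peaks, but their folds were of the usual size. A fold of at least 30 was found in 13 of the 87 (14.9%), against 10.7% of the list and 12.5% of the 44414 peaks in protein-coding gene bodies. A fold under 8 was found in 11 of them (12.6%), against 21.2% of the list.

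The highest fold of the window, 46.4, belonged to a peak of 615 bp near the 3′ end of Cit (116005580 to 116006194, −log10 q 443). The next highest was 40.4, at 115984629 to 115985706, and the next 40.2, at 115858958 to 115859488, only 14.0 kb from the start of the gene. High peaks were thus found towards both ends of Cit, and also in its interior. The folds ranked 4 and 5 in the window, 39.3 and 38.8, lay 81.5 and 115.9 kb from the start of the gene. The lowest fold, 6.10, came with the narrowest peak, 59 bp at 115900709 to 115900767, and its −log10 q of 20.8 was just above the lowest of the list, 20.004. A fold of 6.38 was shared by a peak in Cit (115991847 to 115992003) and one in Tmem233 (116051332 to 116051417).

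**Figure D1:**
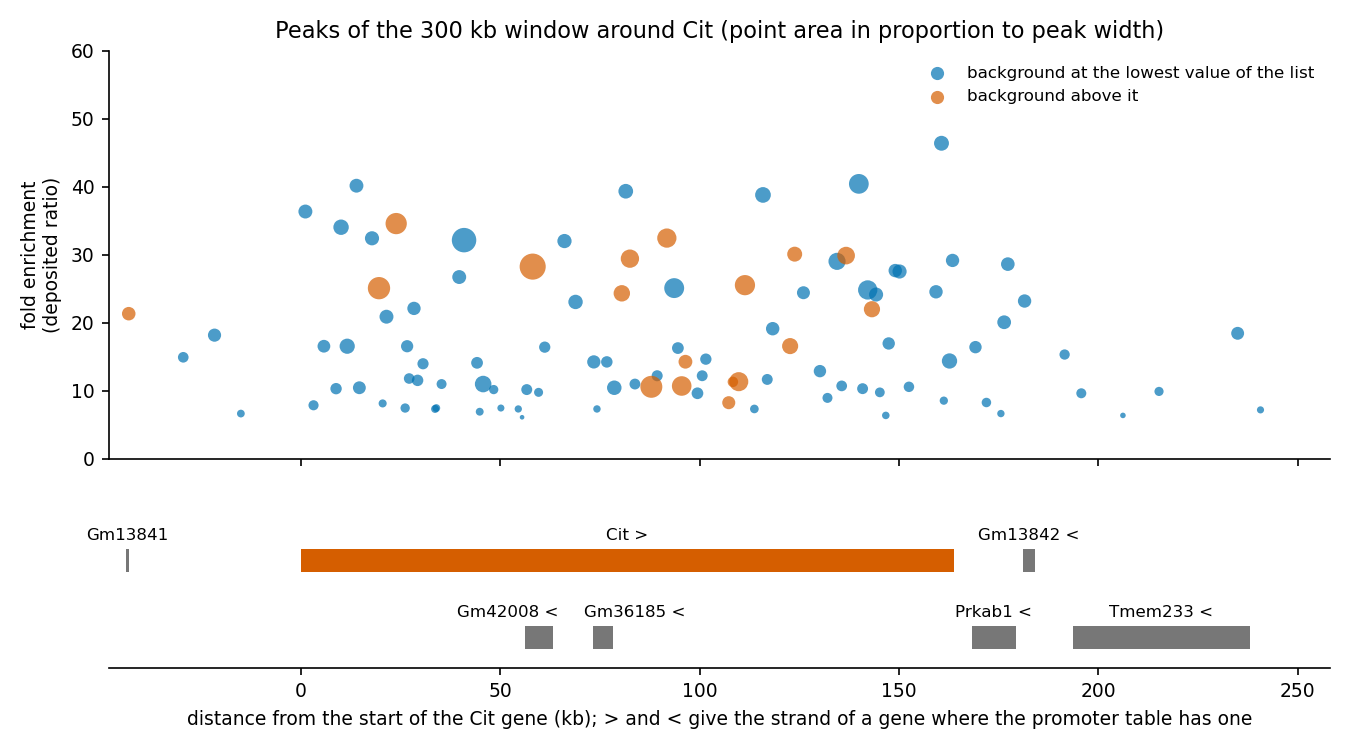
Fold enrichment (deposited ratio, no log scale) of each of the 103 peaks against its distance from the start of Cit in kb, with point area in proportion to peak width and color by kind of background; the bars below are the gene bodies of the window. Points crowd over the bar of Cit, where folds range from 6.10 to 46.4, and thin out on both sides of it.

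The peaks in Cit had a median width of 471 bp (quartiles 322 and 644 bp), and 12 of them (13.8%) were wider than 1 kb, against 3.92% of the list and 4.10% of peaks in protein-coding bodies. All 12 wide peaks of the window lay in Cit. The widest, 1882 bp at 115902459 to 115904340, had a fold of 28.3 and lay where Cit and the lncRNA gene Gm42008 overlap. Wide peaks were not particular to Cit. In the 500 kb to the left of the window 9 of 81 peaks (11.1%) were wider than 1 kb. In Gcn1, a gene of that flank, 6 of 30 (20%) were. The 500 kb to the right held none. Width followed the pileup, the number of sequenced fragments stacked at the summit, with a Spearman correlation of 0.87 over the 87 peaks and 0.91 over the list. Both quantities come from the same reads. The median pileup was 121 in Cit and 127 in the list, and 85 of the 87 summits lay in the middle 50% of their peak.

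Successive peaks in Cit were separated by a median gap of 842 bp (quartiles 471 and 1743 bp), measured from the end of one to the start of the next. Of the 86 gaps, 47 (54.7%) were under 1 kb and 25 (29.1%) were under 500 bp. Over the whole list 15.5% of gaps were under 1 kb and the median gap was 8600 bp. In Gcn1, 44.8% of gaps were under 1 kb and 31.0% under 500 bp, the latter a larger share than in Cit. The left flank had 28.75% and 18.75%, and the right flank 11.3% and 1.89%. The DNA had been sheared to about 300 bp before capture. Only 2 gaps in Cit exceeded 5 kb, and the longest, 6384 bp, preceded the peak at 116004265.

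Upstream of the first peak in Cit, 15.8 kb held no peak, more than any gap inside the gene. The 3′ end of Cit lay 48 bp beyond its last peak (116008416 to 116008905, fold 29.2), and 5.29 kb without a peak then separated this peak from the first one in Prkab1, less than the 2 longest gaps inside Cit. In bins of 20 kb, the 7 bins that lay fully inside Cit each held 9 to 13 peaks. The 50 bins of the flanks held 0 to 12, with a median of 2, and only 2 of them reached 9.

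**Figure D2:**
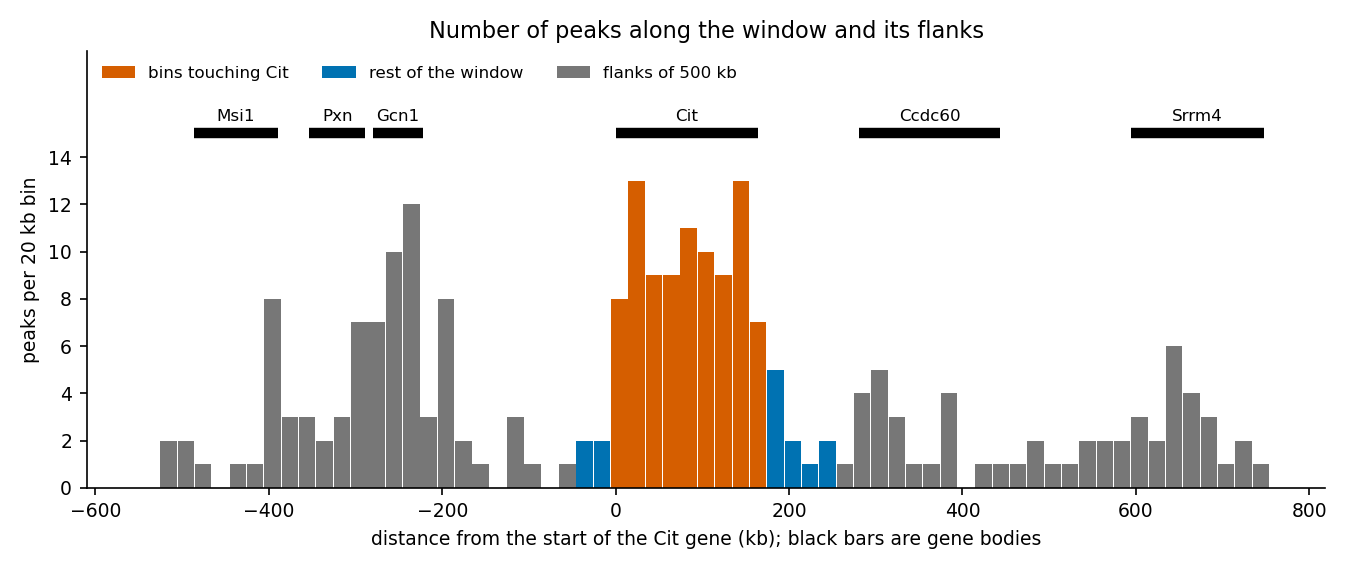
Number of peaks in each bin of 20 kb, against distance from the start of Cit in kb, over the window and 500 kb on each side; black bars mark 6 gene bodies. The bins inside Cit hold 9 to 13 peaks each, and the 2 flank bins that hold at least 9 both lie over Gcn1.

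Along the gene the peaks were spread evenly in number. Divided into 10 equal segments of 16.4 kb, Cit held, from its 5′ end, 8, 11, 9, 7, 8, 9, 8, 7, 11 and 9 peaks. The share of sequence covered was less even, from 19.1% in segment 4 to 42.9% in segment 6. Median folds ran from 9.77 in segment 4 to 24.6 in segment 10. In the 552 genes of similar length whose strand is given, the pooled peaks rose towards the 3′ end, from 6.23% in the segment at the 5′ end to 17.4% in that at the 3′ end, where Cit had 9.20% and 10.3%. The peaks also began early in Cit. Its first peak began 925 bp from the outer end of the gene and 493 bp downstream of the start that the promoter table gives, 115845656. Counted from the promoter table in the same way, the median distance in those 552 genes was 26433 bp and only 3 had a nearer one. Cit was chosen for its number of peaks, and the more peaks a gene holds, the nearer its first is likely to lie. The distance was not adjusted for that number.

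The background behind each peak, in scaled reads, was solved from its fold and p-value. It took the commonest value of the list, 6.37 reads, in 70 of the 87 peaks of Cit (80.5%). The shares were 75.03% on all chromosomes and 85.1% in protein-coding bodies. No peak of the window had a smaller background, so this value is called the lowest here. The other 17 peaks had a higher background. They were wider, with a median of 929 bp against 383 bp, and had higher pileups, with a median of 323 against 102.5 reads and a median fold of 24.3 against 14.0. Of these 17 peaks, 13 lay in the 5 segments next to the 3′ end and 4 in the others.

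The largest backgrounds stood close together. The peak at 115952320 to 115952790 had 372 reads over a background of 44.2, which was 6.94 times the lowest value, and a fold of 8.25. At 115932479 to 115933813, 384 reads stood over 35.4, and this was the largest pileup of the window. At 115954558 to 115955564 there were 379 reads over 32.5, and at 115940227 to 115941286 there were 304 over 27.5. These 4 peaks lay between 87.9 and 109.8 kb from the start of Cit and had folds of 8.25 to 11.3, so pileups of 304 to 384 reads came with folds below the median of the gene. Which libraries supplied the background is not given in the sources used here.

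**Figure D3:**
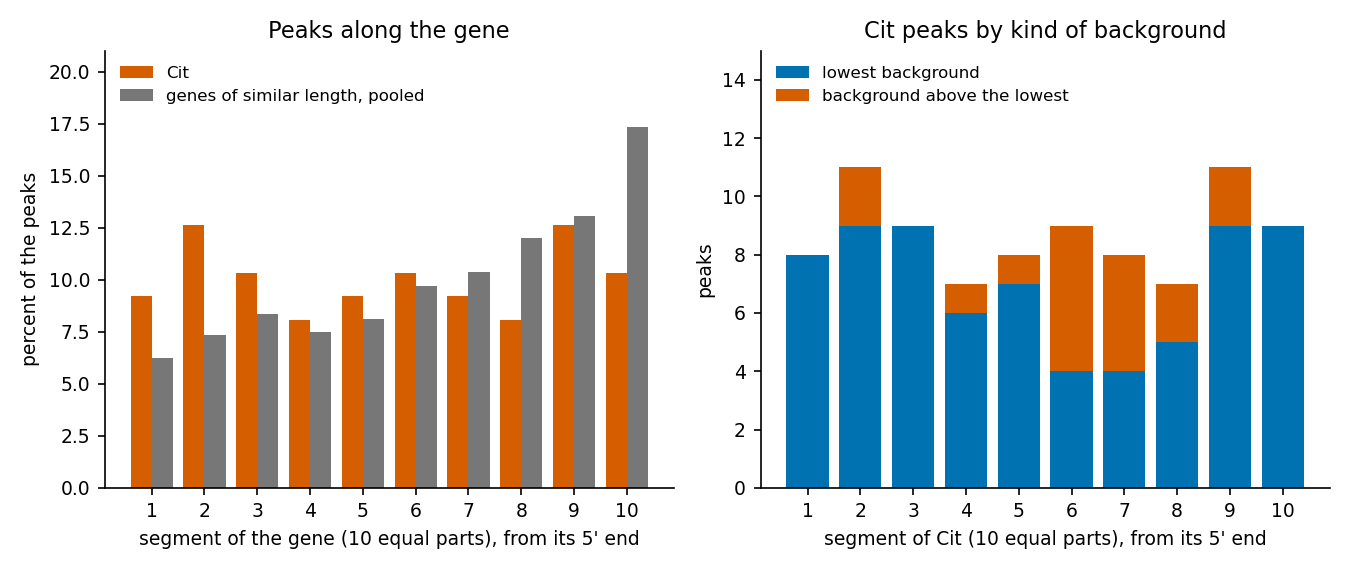
Left, percent of peaks in each of 10 equal segments of the gene from its 5′ end for Cit (87 peaks) and for the pooled peaks of genes of similar length; right, number of Cit peaks in each segment, divided by kind of background. Cit holds 7 to 11 peaks in every segment while the pooled share rises to 17.4%, and segments 6 and 7 hold 9 of the 17 peaks above the lowest background.

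Both lncRNA genes inside Cit lie on the opposite strand, and MBD capture does not tell strands apart, so their peaks are peaks of Cit as well. Gm42008 (115901558 to 115908608) held 4 peaks with folds of 9.77 to 28.3. Gm36185 (115918631 to 115923508) held 3 peaks, with folds of 7.33, 14.2 and 14.2, and a peak lay over or within 57 bp of each of its ends. Exons and introns are not marked in the gene table used, so the peaks were not assigned to them.

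The neighbouring genes were unequal. Prkab1 (116013586 to 116024503) held 5 peaks in 10.9 kb, 45.8 per 100 kb, a density near that of Cit, with folds from 6.65 to 28.6. Tmem233 (116038755 to 116083267) is 44.5 kb long and held 4 peaks, 8.99 per 100 kb, with folds from 6.38 to 18.4. The lncRNA gene Gm13842 held 1 peak, of fold 23.2. On the other side of Cit, the pseudogene Gm13841 was overlapped by the first peak of the window (115801878 to 115802383), whose fold was 21.3 over a background of 11.7 reads. At the right edge of the window the peaks were sparse. The last one inside lay 14.1 kb from that edge (fold 7.19), and the next one 13.7 kb beyond it (fold 8.82). At the left edge, the last peak before the window lay 13.2 kb outside (fold 13.3). The first one inside lay only 2.13 kb from that edge (fold 21.3).

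The flanks of 500 kb on either side held 81 peaks on the left and 54 on the right. The window, at 34.3 peaks per 100 kb, was 2.54 times as dense as both flanks together (13.5 per 100 kb), and Cit 3.94 times. Folds in the left flank were higher than in Cit, with a median of 17.6, and those in the right flank lower, with a median of 11.9. Median widths were 471 bp on the left, as in Cit, and 348.5 bp on the right. Of the 16 protein-coding genes that touch the flanks, 12 held a peak (64.7% of all protein-coding genes did), and the nearest to the window were Bicdl1 on the left, with 9 peaks in 83.7 kb, and Ccdc60 on the right.

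A gene of the left flank, Gcn1, was nearly as dense as Cit. Gcn1 encodes a ribosome-binding activator of the kinase GCN2, which slows translation when amino acids are short. It is 57.5 kb long, ends 223 kb before Cit begins, and held 30 peaks, 52.1 per 100 kb, which covered 33.9% of it. Its folds were higher, with a median of 23.6 (quartiles 15.1 and 32.2), its peaks had a median width of 609.5 bp, and its median gap was 1232 bp. Among the 3828 protein-coding genes of at least 50 kb, Cit and Gcn1 had the highest densities of peaks, followed by Dnah17 (49.5 per 100 kb), which encodes an axonemal dynein heavy chain.

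Ccdc60, the next protein-coding gene after Tmem233, is 163420 bp long and so almost exactly the length of Cit. It held 20 peaks, 12.2 per 100 kb, and Cit was 4.34 times as dense. Its peaks had a median fold of 12.1 and a median width of 359 bp, none was wider than 1 kb, and the median gap was 6623 bp. Peaks covered 4.65% of it.

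**Figure D4:**
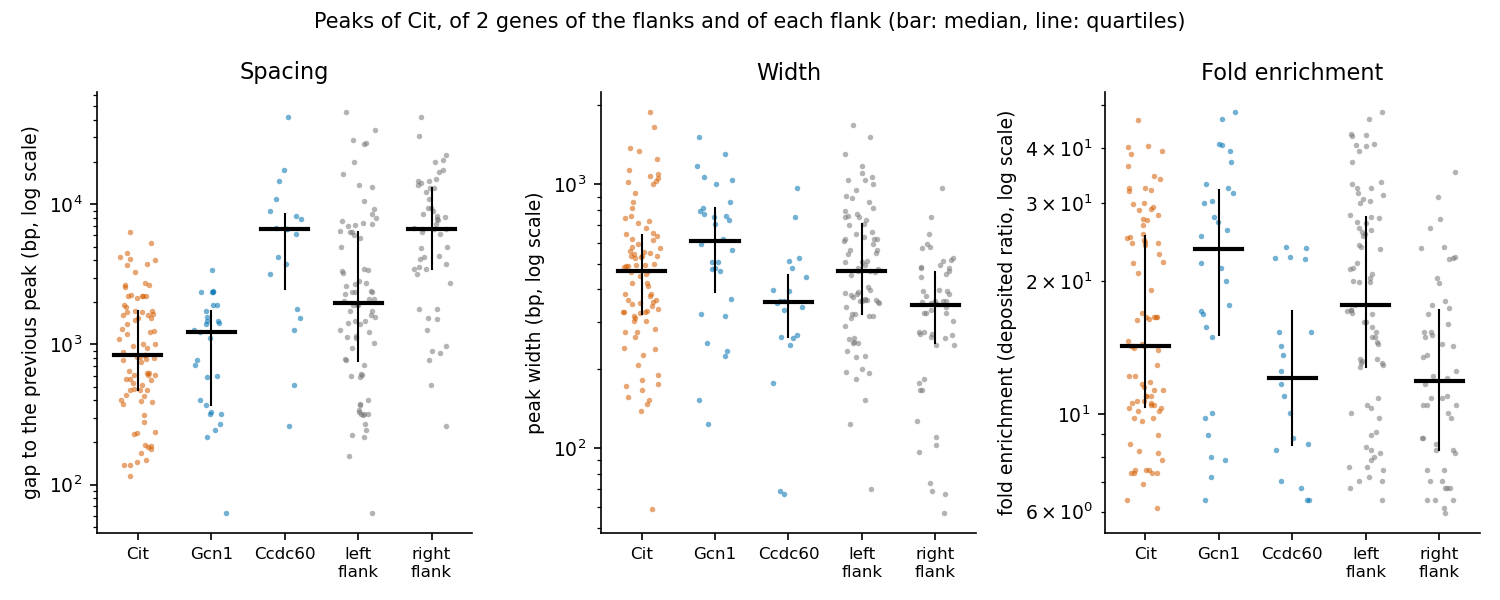
Gap to the previous peak in bp, peak width in bp and fold enrichment, each on a log scale, for the peaks of Cit, Gcn1 and Ccdc60 and of both flanks; points are peaks, bars medians and vertical lines quartiles. The median gap is 842 bp in Cit and 6623 bp in Ccdc60, while the clouds of fold overlap widely.

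Cit was next set among 719 protein-coding genes whose length lay within 25% of its own (123 to 205 kb). At least 1 peak was found in 698 of them, 97.1%, so at this length nearly every gene held one. Their median was 6 peaks (quartiles 3 and 12). The most after Cit were 48 in Cux2, a homeobox transcription factor gene also on chromosome 5, and 45 in Hlcs, which encodes the enzyme that attaches biotin to carboxylases. The genes nearest to Cit in length were Epb41l2, a membrane skeleton gene with 10 peaks, and Arap2, a GTPase-activating protein gene with 3.

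The same genes differed from Cit in how much sequence lay free of peaks. The longest stretch without a peak was 6.38 kb in Cit, against a median of 62.0 kb, and in none of the 719 was it shorter than the 10.6 kb of Klhl3. Peaks covered 28.8% of Cit and a median of 1.64% of the others. Both measures depend on the number of peaks, for which Cit was chosen. Fold did not separate Cit in this way: of the 241 genes with at least 10 peaks, 80 had a higher median fold than Cit. In width 23 of the 241 had a larger median.

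Among the 15771 protein-coding entries on covered sequence, 4 held more peaks than Cit. They were Camta1, with 92 peaks in 802 kb, and the overlapping entries Gm37013, Gm38666 and Gm38667 on chromosome 18, with 108, 104 and 102. These entries are 4.90 to 5.43 times as long as Cit. Of the 1006 entries longer than Cit, 1002 held fewer peaks. The median density of the 1895 genes of at least 100 kb was 3.33 peaks per 100 kb, and 4 of them, Cit, Dnah17, Dnah10 and Drosha, exceeded 30.

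**Figure D5:**
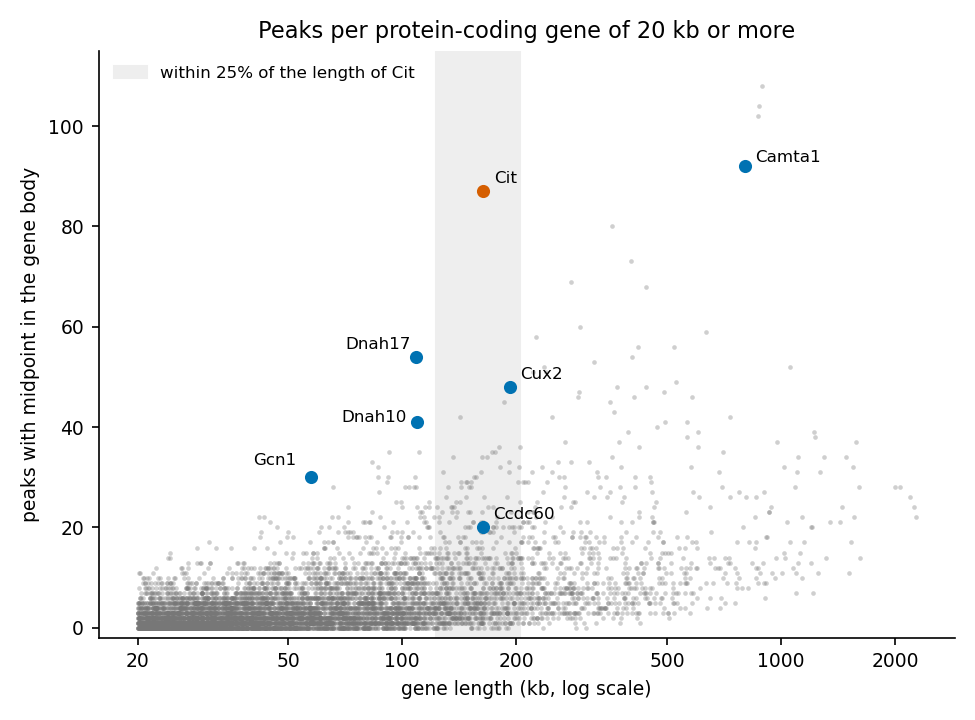
Number of peaks in the gene body against gene length in kb (log scale) for protein-coding genes of 20 kb or more; the gray band marks lengths within 25% of that of Cit. Cit, at 87 peaks, stands above the other genes in the band, the highest of which is Cux2 at 48.

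None of the 30 other genes of a cytokinesis list that lay on covered sequence reached the density of Cit. This is no result about the list, because Cit was chosen for its number of peaks. Its density was also the highest of all 3828 protein-coding genes of at least 50 kb. The list of 41 genes (Cit, small GTPases and their effectors, centralspindlin, the chromosomal passenger complex, midbody kinesins, septins, myosin II, abscission factors, and a few partner or spindle genes such as Dlg4, a postsynaptic scaffold, Aspm, Stil, Knstrn and Ktn1) was found whole in the gene table, and 31 lay on covered sequence. The rest (Rhoa, Anln, Kif23, Kif4, Prc1, Plk1, Tsg101, Pdcd6ip, Septin7 and Wdr62) lay outside the covered sequence and could not be counted. Of the 30 covered genes other than Cit, 23 had at least 1 peak (76.7%), against 64.7% of all protein-coding genes. The 30 were also longer, with a median of 34.5 kb against 18.6 kb. Their median was 2.5 peaks per gene and 9.22 per 100 kb, against 1 and 4.14 for all protein-coding genes.

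Among the covered genes of this list, the most peaks after Cit were in Kif14, with 20. Kif14 encodes the mitotic kinesin that brings citron kinase to the midbody, and its peaks stood at 22.3 per 100 kb with a median fold of 19.9. Myh9, the heavy chain gene of nonmuscle myosin IIA in the contractile ring, held 18 (22.1 per 100 kb, median fold 25.9), and Septin9, a filament-forming GTPase gene nearly as long as Cit at 163 kb, held 16 (9.84 per 100 kb). The highest density was 33.1 per 100 kb, from 2 peaks in the 6.04 kb of Aurkb, the chromosomal passenger kinase gene. No peak was found in Kif20b, Myl9, Rhob, Rhoc, Rock2, Septin2 or Stil, of which Rhob, Rhoc and Myl9 are all under 7 kb.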

How the data were processed

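MBD-seq was labelled for 3 control and 3 cKO cultures, and a single peak list in narrowPeak layout was used. For each peak the authors deposited a fold (signal ratio at the summit), a −log10 p and −log10 q, and a score, which is 10 times the −log10 q without its decimals. Per the submitters' processing notes, fastp, Bowtie2 and MACS2 were used with mm10 (GRCm38), without versions; the peaks are named, per the file headers and names, after a Samtools merge of 3 datasets. A last line, on chromosome 6, was cut short and was dropped. As no value belongs to a sample, depth is unknown and the planned test on counts was not computed.

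Peaks were placed by midpoint (Python 3.11.15, pandas 2.3.3; coordinates 1-based). Genes and promoters came from RefSeq tables of GRCm38.p6. Genes within the first 3 Mb of a chromosome or past the last peak of chromosome 6 were left out. Genes on chromosomes without a peak in the list were also left out. Pileup and background were solved from (pileup + 1)/(background + 1) = fold and a Poisson upper tail equal to p. A whole-number pileup matched 99.97% of peaks (within 1% of the step between neighbouring pileups) and every peak of the window.

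Members and lists were chosen with earlier results of these data known. The rule named every gene touching the window, the nearest protein-coding gene of each flank, the 3 genes of similar length with most peaks and the 2 nearest in length, and in the cytokinesis list the 3 with most peaks after Cit and those with none; 1 gene it named is not reported here. Other genes, among them Gcn1, were singled out after their values were seen. Alternatives were placing peaks by their summit or by any overlap (1 bp or more), a −log10 q of at least 50 or 100, merging peaks under 500 bp apart, peaks at the lowest background alone, flanks of 250 or 1000 kb, windows every 10 kb and other ranges of length.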

Additional observations from a re-analysis of the deposited data

How the results depend on the processing

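No paired analysis was possible because none of the values belongs to a single culture, and no replicate could be left out. Of 28 alternative values, 24 were counted as close to the reported one, which for numbers of peaks meant within a factor of 1.5. Window counts of 76 (peaks merged) and 77 (−log10 q of at least 50), against 103, were thus among the 24. Keeping only peaks with a −log10 q of at least 100 left 53 peaks in the window and 46 in Cit, fewer by construction; both kept the highest rank. With windows of 300 kb starting every 10 kb, the window ranked 3, behind shifted copies of itself with up to 104 peaks, and no window apart from it held more than 96. The median spacing was 1546 bp between midpoints and 1054 bp from end to start. The ratio of the window to its flanks ran from 2.13 (peaks merged) to 2.72 (−log10 q of at least 100), and Cit ranked 1 under the 4 other choices of comparison genes or filter. Merging left 62 peaks in Cit, and peaks at the lowest background alone 70. Repeats that cannot be aligned uniquely, CpG density inside the gene and copy number were not examined, since no genome sequence or reads were used here.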

Other observations

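The 9 windows of 300 kb next in rank to that of Cit, out of 6503, lay on chromosomes 5, 10, 11, 12 and 17. Chromosome 5 held 4 of the 9, and 495 of the 6503 windows. Those ranked 2, 5 and 8 joined into one stretch of chromosome 5, from 114000000 to 114900000, with 68 to 80 peaks per window. The median window held 10 peaks (12 on chromosome 5). In the window ranked 3 most peaks lay in Dnah17 (54 of 76), whereas in the window ranked 2, with 9 protein-coding genes, the gene with the largest overlap, Git2, held 13 of 80.

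Of the 719 protein-coding genes close to Cit in length, 21 had no peak in the body. They included Col11a1, a fibrillar collagen gene of cartilage (190 kb), and the ubiquitin protease and ligase genes Usp34 (187 kb) and Trip12 (129 kb). These 3 were named after their values were seen. That no peak was listed says only that none passed the threshold of the list.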
